A study of Rattus norvegicus with 6 samples.

Results

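The genes described here are 35 rat genes of mitosis, named in a list and read through the RefSeq accession of each array probe, with the brightest probe standing for a gene. Probes for 30 of them were on the array, out of 15443 named genes and 27455 features (named genes plus unnamed probes) in all, and Bub1b, Top2a, Cenpe, Melk and Anln were not analysed here. The list names genes and uses no measured threshold, but it was drawn up with earlier results of these data known, so its counts are given beside those of all features and are no independent test. The data are 6 Agilent arrays, read in 1 colour, from 13 weeks old Sprague Dawley rats, in a study of adipose-derived stem cells (ADSCs, mesenchymal cells cultured from fat) loaded with 124I-HIB, an iodine-labelled lipophilic tracer that allows injected cells to be imaged. The myocardial groups were sham-operated heart (1 array), infarcted heart injected with PBS buffer and no cells (1 array), and infarcted heart injected with 124I-HIB-labelled ADSCs (2 arrays, called treated, replicates 1 and 3 in the labels). The labels place all 4 tissues at 21 days after a sham operation, so how long after infarction or injection the infarcted hearts were taken is not settled. The cell groups were unlabelled and 124I-HIB-labelled ADSCs after 14 days of culture, with 1 array each. No group received unlabelled cells, so cell transfer and tracer cannot be told apart in tissue, and the labels do not say whether the treated arrays came from separate animals or which part of the heart was taken.

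Entry into mitosis is driven by cyclin-dependent kinase 1 (CDK1) bound to cyclins A and B, and exit from it by the anaphase-promoting complex, a ubiquitin ligase that marks cyclin B for destruction. In between, Aurora and Polo-like kinases, kinesin motors and the kinetochore build the spindle and attach chromosomes to it, and the central spindle then places the ring that divides the cell. Most of these genes are transcribed only late in the cell cycle, when the DREAM repressor complex has left their promoters and B-MYB and FOXM1 have been recruited, so their RNA is widely read as a mark of cycling cells. Adult cardiomyocytes seldom divide, and in injured heart cycling cells belong mainly to fibroblasts, vessels and blood-derived cells, whereas ADSCs divide in culture.

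Levels are log2 of the processed signal relative to the 75th percentile of the same array, so 0 marks that percentile. The arrays were of like quality, with 64.4% to 69.4% of probes well above background and no saturated spot, and the few arrays limit the precision. Of the 30 genes, 25 were well above background on all 6 arrays, and all 30 on both cell arrays. The exceptions in myocardium were Nek2 and Pbk (dim on all 4 arrays), Aurkb (dim in sham and PBS), and Cenpf and the brightest probe of Kif2c (dim in sham, PBS and treated replicate 1). The tissue and cell labels were set against marker lists. All 10 ventricular cardiomyocyte genes were well above background in every heart and 6 of 10 in each culture, with a summed signal of 2041 to 2932 times the 75th percentile in heart and 4.56 and 4.90 in the cells. Myh6, the cardiac alpha myosin heavy chain, stood at 8.37 to 9.11 in myocardium and was not well above background in either culture. Of 7 mesenchymal stem cell markers, all were well above background in both cultures and 6 also in every heart, so that Thy1 alone was detected only in the cells. Eng and Nt5e differed little between heart and cells. Vcam1 stood at -0.33 in PBS and -1.23 to -0.96 in the other hearts, against -1.13 and -1.40 in unlabelled and labelled cells. The PBS array stood apart from the other myocardial arrays in most of its atrial and mesothelial genes. The atrial gene Myl4 (7.10 in PBS, 6.98 to 7.33 in the other hearts) and the mesothelial gene Wt1 (-1.45, against -1.48 to -1.27) did not set PBS apart. Its summed signal over the 6 atrial cardiomyocyte markers was 449 times the 75th percentile, against 168 in sham and 165 and 142 in the treated pair, and Bmp10 was well above background on that array alone. Over the 3 mesothelial markers the summed signal was 2.43 in PBS, against 0.397 in sham and 0.375 and 0.437 in the treated pair, and Krt19 was well above background only there. All comparisons below that use PBS rest on this 1 array.

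The mitosis genes largely followed 1 order across the arrays. Over the 25 measured on every array, the median level was -4.19 in PBS, -3.31 in sham, -2.98 in treated replicate 1, -3.12 in replicate 3, -1.02 in unlabelled ADSCs and -0.80 in labelled ADSCs. PBS was the lowest of the 4 myocardial arrays for 23 of the 25, where 30.3% of all features well above background on these arrays had PBS lowest. For 22 of the 25, PBS was lowest and labelled ADSCs highest of all 6 arrays, an order held by 4.6% of features.

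**Figure D1:**
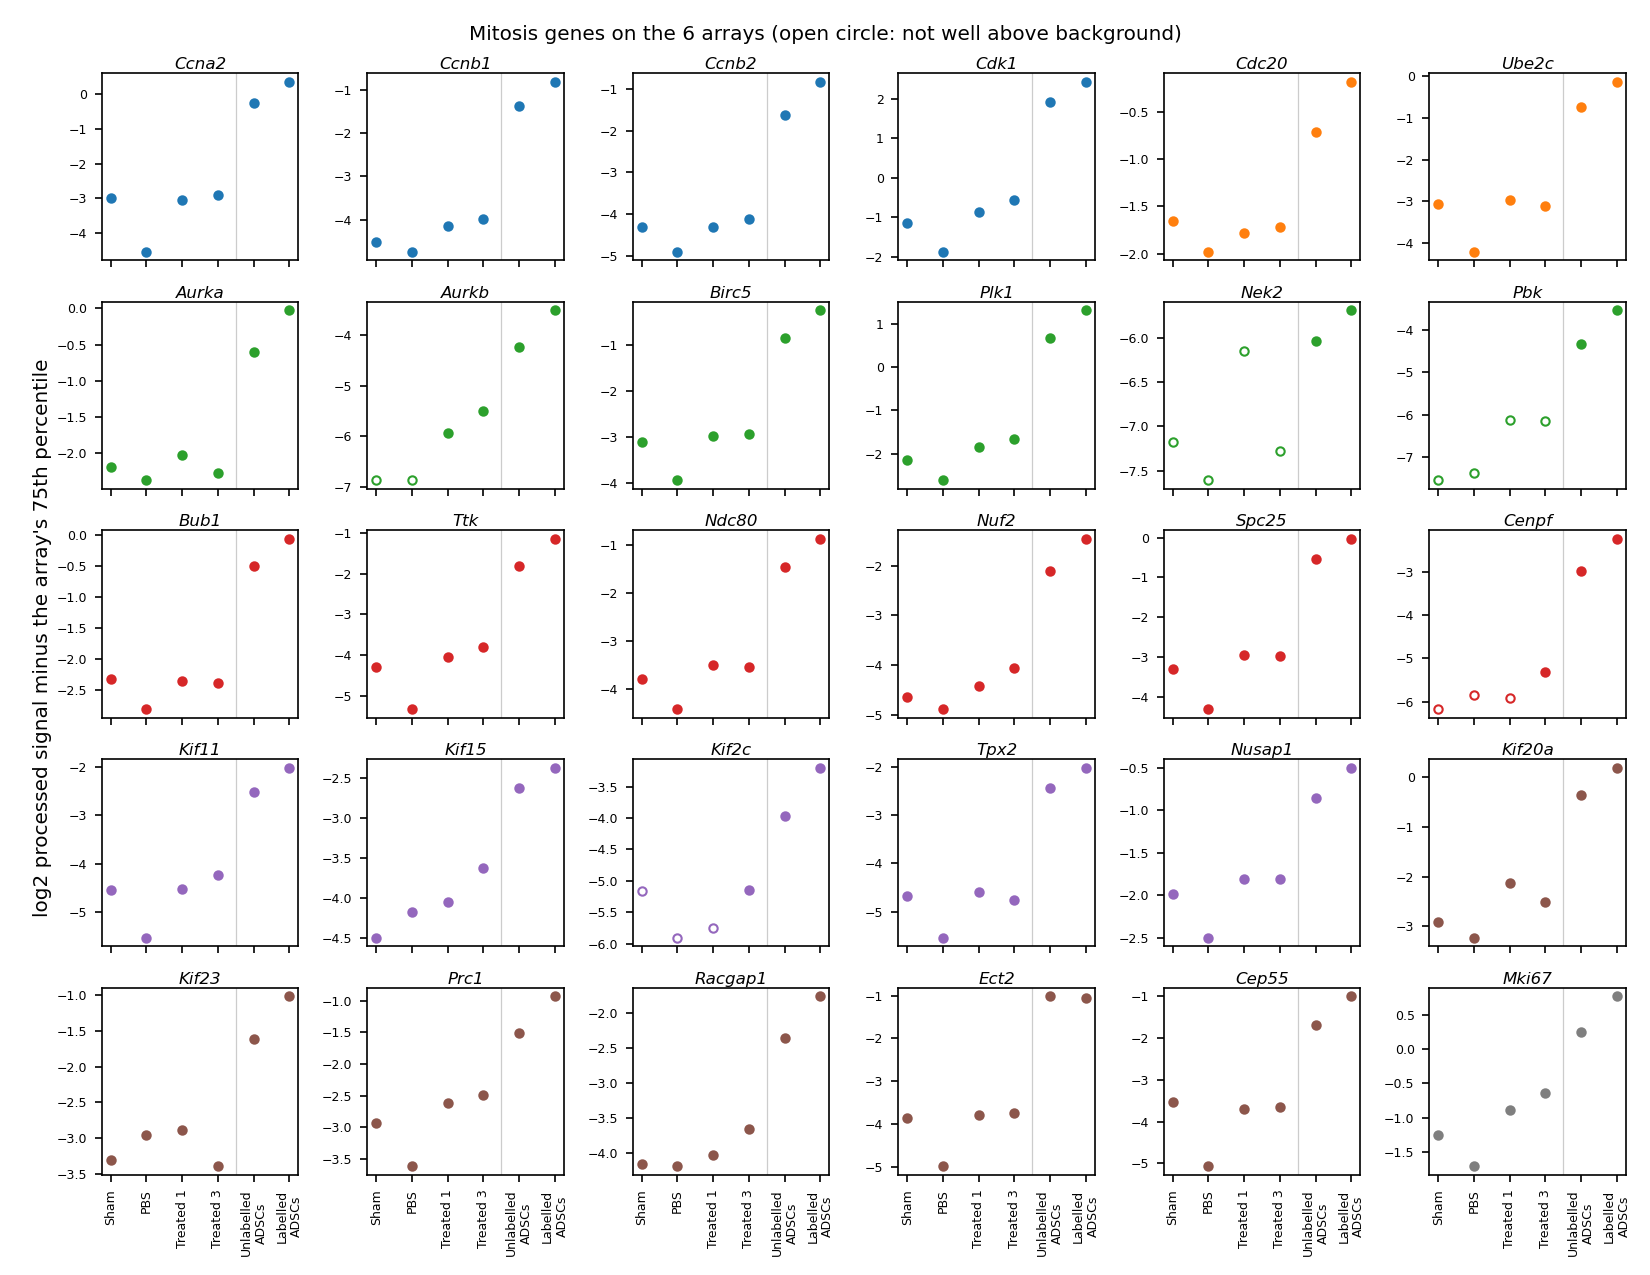
Each panel plots 1 mitosis gene, with the 6 arrays on the x axis and the log2 processed signal relative to the 75th percentile of the array on the y axis. Each point is 1 array, open where the probe was not well above background, and colours mark the mitotic role. Both cell arrays lie above all myocardial arrays in every panel, and PBS is the lowest filled point in 23 of the 25 panels with 6 filled points.

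Promoters were examined because the genes followed a common order across arrays and because late cell cycle genes are known for a shared promoter layout, the CHR element bound by DREAM and B-MYB complexes and CCAAT boxes bound by NF-Y. RefSeq windows on the GRCr8 assembly, from 250 bases before to 50 bases after the transcription start, were given for 24 of the 30 genes, the others being Ccna2, Ube2c, Aurkb, Pbk, Tpx2 and Racgap1. A CHR, searched as TTTGAA or TTCGAA on both strands, was found in 17 of the 24 genes (70.8%) and in 19.7% of all 33469 windows. Listed genes were counted by gene and the background by window, so the shares differ in unit. CCAAT, also searched on both strands, was found in 17 (70.8%), against 37.5% of all windows. Both motifs stood in 13 (54.2%), against 7.95%, and at least 2 CCAAT boxes also in 13 (54.2%), against 11.2%. The Aurka window held neither motif, but whether it is the main promoter of that gene was not checked. Its promoter is therefore not shown to lack them. The 6 windows below are examples, and the genes that differed most between hearts, Ccna2 and Cep55, are not among them. Each is printed in the direction of its gene with CHR and CCAAT matches in capitals, a CCAAT on the other strand reading as ATTGG. The windows lie at chr20:19265043-19265342 (+ strand) for Cdk1, chr2:33655176-33655475 (- strand) for Ccnb1, chr1:186147408-186147707 (+) for Plk1, chr3:74396669-74396968 (-) for Spc25, chr2:111966577-111966876 (-) for Ect2 and chr3:181560720-181561019 (-) for Aurka.
Cdk1: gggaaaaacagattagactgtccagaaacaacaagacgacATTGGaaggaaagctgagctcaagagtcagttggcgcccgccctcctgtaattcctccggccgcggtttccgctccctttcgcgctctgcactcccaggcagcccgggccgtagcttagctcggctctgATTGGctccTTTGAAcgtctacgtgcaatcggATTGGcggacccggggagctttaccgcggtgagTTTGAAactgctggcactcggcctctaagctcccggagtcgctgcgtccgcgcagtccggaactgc
Ccnb1: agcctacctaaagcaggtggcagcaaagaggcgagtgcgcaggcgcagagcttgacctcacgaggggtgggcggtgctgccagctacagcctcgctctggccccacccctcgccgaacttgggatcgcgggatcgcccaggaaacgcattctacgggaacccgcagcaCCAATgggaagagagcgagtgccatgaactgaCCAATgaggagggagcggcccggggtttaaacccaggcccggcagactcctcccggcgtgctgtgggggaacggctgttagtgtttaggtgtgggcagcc
Plk1: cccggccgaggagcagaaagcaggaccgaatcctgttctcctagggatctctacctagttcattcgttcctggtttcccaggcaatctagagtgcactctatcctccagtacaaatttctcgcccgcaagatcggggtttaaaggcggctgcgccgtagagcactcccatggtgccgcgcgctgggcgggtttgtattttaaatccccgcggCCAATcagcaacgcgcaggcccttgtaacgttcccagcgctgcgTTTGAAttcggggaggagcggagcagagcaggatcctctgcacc
Spc25: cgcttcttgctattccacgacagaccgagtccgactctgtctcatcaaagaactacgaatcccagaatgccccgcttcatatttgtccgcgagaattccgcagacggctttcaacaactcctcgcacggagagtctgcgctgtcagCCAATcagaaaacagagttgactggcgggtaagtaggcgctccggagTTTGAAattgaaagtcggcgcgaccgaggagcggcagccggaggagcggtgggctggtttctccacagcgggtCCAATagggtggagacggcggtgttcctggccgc
Ect2: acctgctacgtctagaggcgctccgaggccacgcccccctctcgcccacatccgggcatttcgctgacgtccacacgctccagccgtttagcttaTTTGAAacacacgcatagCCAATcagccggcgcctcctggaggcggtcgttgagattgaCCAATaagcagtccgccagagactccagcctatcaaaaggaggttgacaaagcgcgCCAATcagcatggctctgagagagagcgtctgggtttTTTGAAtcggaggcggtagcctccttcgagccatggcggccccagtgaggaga
Aurka: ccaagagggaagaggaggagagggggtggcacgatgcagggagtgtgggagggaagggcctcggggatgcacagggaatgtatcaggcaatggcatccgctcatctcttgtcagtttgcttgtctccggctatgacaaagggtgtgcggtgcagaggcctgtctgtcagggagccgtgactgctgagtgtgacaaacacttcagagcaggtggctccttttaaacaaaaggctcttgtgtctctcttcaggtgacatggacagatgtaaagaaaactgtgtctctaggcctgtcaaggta

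Cdk1 carried 2 CHR matches, 72 and 16 bases before the start, and 3 CCAAT boxes on the other strand, at 210, 81 and 49 bases before it. Ect2 held a CHR 155 bases and another 3 bases before the start, with 3 CCAAT boxes between them. Plk1 had 1 CCAAT box 38 bases before the start and a CHR 7 bases after it, and Spc25 a CHR 57 bases before it. Ccnb1 held no CHR in this window and 2 CCAAT boxes, 82 and 50 bases before the start. These are matches of letters, and no binding was measured.

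Cyclins and CDK1 open mitosis. Cdk1, the master kinase, stood at -1.14 in sham, -1.87 in PBS, -0.85 and -0.56 in the treated pair, 1.94 in unlabelled and 2.44 in labelled ADSCs. Ccna2, cyclin A2 of S phase and early mitosis, stood at -2.99, -4.53, -3.03 and -2.90 in the same myocardial order, and at -0.27 and 0.34 in the cells. In both genes PBS was low and the treated pair lay close to sham or above it. Ccnb1, one of the B cyclins that CDK1 needs, differed less among hearts, at -4.53 in sham, -4.75 in PBS and -4.14 and -4.00 in the treated pair, against -1.37 and -0.80 in the cells. Ccnb2, the other B cyclin, stood at -4.30 in sham, -4.90 in PBS and -4.29 and -4.12 in the treated pair, and at -1.63 and -0.83 in the cells. Ccna2 thus had the widest gap between PBS and the other hearts in this group and Ccnb1 the narrowest. A second Ccna2 probe also put PBS lowest and the cells highest, with a smaller PBS minus sham difference (-0.84 against -1.54).

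Cdc20 and Ube2c serve the anaphase-promoting complex, the first as its activator and the second as the enzyme that hands it ubiquitin. Ube2c stood at -3.06 in sham, -4.21 in PBS, -2.96 and -3.12 in the treated pair, and -0.73 and -0.12 in unlabelled and labelled cells. Cdc20 stood at -1.65, -1.98, -1.78 and -1.72 in the hearts and at -0.71 and -0.18 in the cells. Ube2c therefore separated PBS from the other hearts, while Cdc20 spanned only 0.33 among them.

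Mitotic kinases and the chromosomal passenger complex came next. Plk1, Polo-like kinase 1, which acts from centrosome to midbody, stood at -2.15 in sham, -2.62 in PBS, -1.86 and -1.66 in the treated pair, 0.67 in unlabelled and 1.31 in labelled cells. Birc5 (survivin), which docks the passenger complex on the centromere, stood at -3.12 in sham, -3.95 in PBS, -2.98 and -2.93 in the treated pair, and -0.84 and -0.23 in the cells. Aurka, the Aurora kinase of the spindle poles, showed little spread among hearts, at -2.18, -2.37, -2.03 and -2.27, and stood at -0.59 and -0.03 in the cells. For Aurka the treated arrays differed from each other by -0.24, more than their mean differed from PBS (0.22). Aurkb, the passenger complex kinase, was not well above background in sham or PBS and stood at -5.95 and -5.50 in the treated pair and at -4.24 and -3.51 in the cells. Its mean in the treated pair was 2.23-fold above PBS with the dim PBS array taken at its own signal, so the fold is approximate. In treated replicate 1, 1 of the 2 Aurkb spots was not well above background. The kinases Nek2, of centrosome splitting, and Pbk were measured only in the cells, at -6.03 and -5.68 for Nek2 and -4.33 and -3.55 for Pbk.

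At the checkpoint and kinetochore, Ttk (MPS1, the kinase that starts checkpoint signalling) stood at -4.31 in sham, -5.33 in PBS, -4.06 and -3.80 in the treated pair, and -1.81 and -1.15 in the cells. Spc25, Ndc80 and Nuf2 are subunits of the complex that grips the ends of microtubules. Spc25 stood at -3.31 in sham, -4.30 in PBS, -2.94 and -2.98 in the treated pair, and -0.54 and -0.03 in the cells. Ndc80 stood at -3.78, -4.41, -3.49 and -3.54 in the hearts and at -1.46 and -0.88 in the cells. Nuf2 stood at -4.65, -4.89, -4.42 and -4.06 in the hearts and at -2.11 and -1.46 in the cells. PBS was lowest for each of these subunits, with differences from sham of -0.997 for Spc25, -0.63 for Ndc80 and -0.24 for Nuf2, although they work in 1 complex. Bub1, a checkpoint kinase, stood at -2.33 in sham, -2.81 in PBS and -2.36 and -2.39 in the treated pair, and at -0.50 and -0.06 in the cells, so that sham and the treated pair differed by -0.05 ± 0.02 (SD, n = 2). Cenpf, an outer kinetochore protein, was well above background in 1 heart only, treated replicate 3 (-5.32), and stood at -2.98 and -2.24 in the cells.

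Among kinesins and spindle assembly factors, Kif11 (Eg5, the motor that pushes spindle poles apart) stood at -4.55 in sham, -5.54 in PBS, -4.54 and -4.24 in the treated pair, and -2.52 and -2.01 in the cells. Tpx2, which activates Aurora A on the spindle, stood at -4.68, -5.55, -4.59 and -4.76 in the hearts and at -2.43 and -2.01 in the cells. Nusap1, a microtubule bundling protein, stood at -1.98, -2.50, -1.81 and -1.80 in the hearts and at -0.85 and -0.50 in the cells. PBS lay below the other hearts for all 3. Kif15, a motor that can stand in for Kif11, went against this, with sham the lowest at -4.49, PBS at -4.17, the treated pair at -4.05 and -3.62, and the cells at -2.63 and -2.38. The brightest Kif2c probe rested on 1 spot, and its other probe, with 10 spots, was well above background throughout, at -5.29 in sham, -5.76 in PBS, -5.62 and -5.43 in the treated pair, and -4.42 and -3.79 in the cells. By that probe Kif2c, a microtubule depolymerase, also had PBS lowest.

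Cytokinesis genes held both the widest and the narrowest difference between PBS and sham among the 25 genes. Cep55, the midbody protein that recruits the abscission machinery, stood at -3.53 in sham, -5.08 in PBS, -3.69 and -3.66 in the treated pair, and -1.68 and -0.99 in the cells. Ect2, the exchange factor that activates RhoA at the division plane, stood at -3.86, -5.00, -3.79 and -3.75 in the hearts and at -1.02 and -1.06 in the cells. Prc1, which bundles central spindle microtubules, stood at -2.93, -3.62, -2.62 and -2.49 in the hearts and at -1.51 and -0.93 in the cells. These put PBS clearly under the other hearts. Kif20a, a motor of the central spindle, stood at -2.91 in sham, -3.23 in PBS, -2.13 and -2.50 in the treated pair, and -0.35 and 0.20 in the cells. Racgap1 and Kif23, the partners that form centralspindlin, differed from these, with PBS minus sham differences of -0.04 and 0.35. Racgap1 stood at -4.15 in sham, -4.19 in PBS and -4.02 and -3.66 in the treated pair, and Kif23 at -3.31, -2.96, -2.89 and -3.40, so that for Kif23 PBS lay inside the range of the treated pair. In the cells Racgap1 stood at -2.35 and -1.75 and Kif23 at -1.61 and -1.02. Mki67, the proliferation antigen Ki-67 that coats mitotic chromosomes, stood at -1.26 in sham, -1.71 in PBS, -0.88 and -0.64 in the treated pair, and 0.26 and 0.77 in the cells, and its 2 other probes had the same order.

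The first comparison, PBS-injected infarct against sham, asks how infarction without cell therapy differs from the operated control. Mitosis genes were lower on the PBS array, by a median log2 difference of -0.60 (1.52-fold), where all 17255 features measured on both arrays had a median of -0.05. Cep55 and Ccna2 were lowest relative to sham (2.91-fold and 2.90-fold lower), followed by Ube2c (2.22-fold), Ect2 (2.20-fold) and Ttk (2.03-fold). Spc25 (-0.997) and Kif11 (-0.991) lay just short of 2-fold. Of the 25 genes, 23 were lower at any size, as were 55.5% of features, and only Kif23 (0.35) and Kif15 (0.32) were higher. With 1 array a group no test was made. At 2-fold, 5 of 25 were lower, against 1.44% of features, and at 1.5-fold 13 of 25, against 6.79%. Features of like brightness that were not in the list had a median of 0.03. By role the medians ran from -0.74 for Cdc20 and Ube2c to -0.46 for Mki67 alone. Cdk1, Kif11, Nusap1, Prc1 and Mki67 were each printed on 10 spots. The standard error of their PBS minus sham difference from repeated spots was 0.04 to 0.10. Among the 5 genes called at 2-fold it was 0.34 for Cep55, 0.31 for Ccna2 and 0.18 for Ect2. Ube2c and Ttk had 1 spot each and so no such error. Errors of this kind cover spotting within these 2 arrays only. Of the 2 Cep55 spots on the PBS array, 1 was not well above background. The call at 2-fold depended on background correction: with normexp, a background correction with an offset of 50 that compresses dim signals, 0 of the 25 were 2-fold lower and the median was -0.51.

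The PBS array also differed from sham in markers of other cell types, whose part in the result was not tested. All 5 measured erythroid genes were lower in PBS than in sham, with a median of -1.02, and 7 of 9 listed were on the array. Their summed signal was 275 in sham, 152 in PBS, 130 and 187 in the treated pair, and Rhag was not well above background on any of these arrays. Alas2, the erythroid enzyme of haem synthesis, stood at 2.29 in sham, 1.27 in PBS and 2.31 and 2.43 in the treated pair, and Slc4a1, the red cell anion exchanger, at -0.29, -1.76, -0.49 and -0.05, so PBS was lowest for both, as it was for Ahsp. PBS was not the lowest heart for Hbb, at 8.05, 7.20, 6.93 and 7.48, or for Tfrc, at 1.49, 0.81, 0.72 and 0.38, and Epb42 was well above background in PBS alone. Smooth muscle genes ran the other way, with PBS the highest heart for all 3 measured and medians of 0.85 for PBS minus sham and -0.91 for treated minus PBS. The mesothelial gene Msln stood at 0.94 in PBS and was not well above background in sham or treated replicate 1. The median difference of PBS from sham was -0.45 over 10 ventricular cardiomyocyte genes and -0.29 over 7 T and NK cell genes (8 measured against treated), and that of the treated pair from PBS was 0.00 for both. Macrophage genes had medians of -0.03 and -0.24 in these comparisons, fibroblast genes 0.09 and -0.51 and endothelial genes -0.10 and -0.02. The neutrophil genes S100a8 and S100a9 were lower than sham in PBS (-1.56 and -1.40) and in the treated pair (-1.59 ± 0.70 and -1.35 ± 0.71, SD, n = 2). In bulk tissue, fewer cycling cells and less mitotic RNA in each cannot be told apart.

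The second comparison, treated against PBS, asks what injected labelled ADSCs add to infarcted heart. Mitosis genes were higher in the treated hearts, with a median log2 difference of 0.90 (1.87-fold) against 0.01 over 17338 features, and the medians were 0.92 and 0.87 for replicates 1 and 3 taken singly. Ccna2 differed most (2.95-fold; log2 difference 1.56 ± 0.09, SD, n = 2), then Cep55 (2.65-fold; 1.40 ± 0.03) and Ttk (2.64-fold; 1.40 ± 0.18). Spc25 (1.35 ± 0.03), Ect2 (1.23 ± 0.02), Ube2c (1.17 ± 0.11), Cdk1 (1.17 ± 0.21) and Kif11 (1.15 ± 0.21) were also more than 2-fold higher in both treated arrays. These 8 of 25 compare with 0.45% of features. Prc1 and Birc5 lay just outside, 2.09-fold and 2.00-fold higher on average but under 2-fold in replicate 1. At 1.5-fold in both arrays 18 of 25 were higher, against 2.24%, and at any size 24 of 25, against 38.6%. Each SD here is between the 2 treated arrays and leaves out the error of the lone PBS array. For Spc25 the SD between spots was 0.75 in treated replicate 1 and 0.43 in PBS, and for Cep55 it was 0.46 in PBS.

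No mitosis gene passed limma at an adjusted p under 0.05 (0 of 28 tested, and 0 of 19603 features), and the limma adjusted p of the 28 ran from 0.239 for Ccna2, 0.248 for Cep55 and 0.261 for Spc25 to 0.878 for Kif23. The fit has 1 residual degree of freedom, from the treated pair, and the lone PBS and sham arrays are taken to vary like that pair. Before adjustment 19 of the 28 had p under 0.05 in limma, all higher in treated hearts, against 4.63% of features. Among these genes, Aurkb was dim in sham and PBS and entered the fit only through the treated pair. The standard error of the fitted difference was 0.17 for Ccna2, 0.16 for Cep55 and 0.16 for Spc25. For Aurka, Kif15, Kif23 and Racgap1 the treated arrays differed from each other by more than their mean differed from PBS. Between replicate 3 and replicate 1 the mitosis genes differed by a median of 0.09 with an SD of 0.24 over 26 genes, against 0.04 and 0.32 over 17609 features. With normexp 0 of the 25 were 2-fold higher in both arrays and the median was 0.48. The low PBS array enters this comparison and the first, so the order of genes in one is tied to that in the other. The 3 atrial genes measured were lower in the treated pair than in PBS, but by unlike amounts. Their differences were -6.17 ± 0.84 (SD, n = 2) for Myl7, -2.25 ± 1.24 for Nppa and -0.10 ± 0.03 for Myl4. Of 5 erythroid genes 3 were higher in both treated arrays, Slc4a1 (1.49 ± 0.31), Alas2 (1.10 ± 0.08) and Ahsp (1.03 ± 0.13), and 1 was lower, Tfrc (-0.26 ± 0.23). Their part in the result was not tested.

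**Figure D2:**
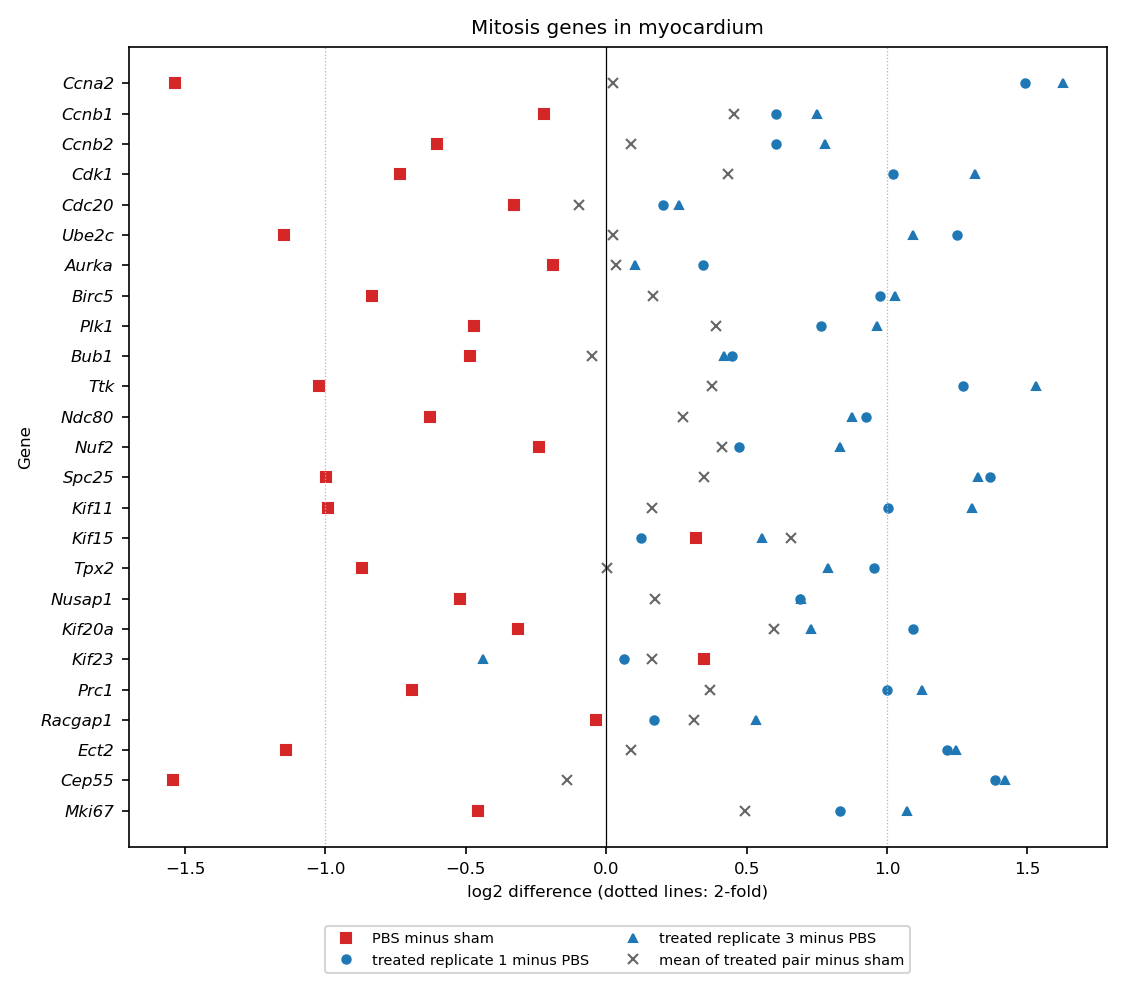
The x axis is the log2 difference between myocardial arrays and the y axis lists the 25 mitosis genes well above background on all of them. Squares are PBS minus sham, filled circles and triangles are treated replicates 1 and 3 minus PBS, and crosses are the mean of the treated pair minus sham. Squares lie left of 0 for 23 genes, both treated points lie right of 0 for 24, and every cross lies within 0.66 of 0.

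Set against sham, which PBS does not enter, the treated hearts differed little in mitosis genes. The median log2 difference was 0.17 (1.13-fold), against -0.04 over 17052 features, and 0 of 25 were 2-fold apart in both treated arrays (0.973% of features). At 1.5-fold 0 were higher in both (2.38%) and 0 lower (1.99%). Kif15 (0.66 ± 0.30), Kif20a (0.60 ± 0.26), Mki67 (0.50 ± 0.17), Ccnb1 (0.46 ± 0.10) and Cdk1 (0.43 ± 0.21; SD, n = 2 throughout) stood highest. Ccna2 (0.02), Ube2c (0.02) and Tpx2 (0.00) lay at the sham level by their brightest probes, where second probes gave 0.52 for Ccna2 and 0.16 for Mki67, and Cep55, Cdc20 and Bub1 were below it in both arrays (-0.14, -0.10 and -0.05). Both treated arrays were above sham for 17 of 25 genes (32.9% of features), both below for 3 (42.3%), and sham lay between them for 5. No mitosis gene passed limma, 0 of 28 and 0 of all features, with adjusted p from 0.448 to 0.997. Before adjustment Aurkb alone of the 28 had a limma p under 0.05, as did 9.62% of features. Aurkb was dim in sham (SD between spots 1.35) and entered the fit only through the treated pair, so its p-value was not taken as support. With normexp the median turned to -0.07 and that of all features to -0.13. The spread of the 25 genes in this comparison (SD 0.22) was below that in treated against PBS (0.43).

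The next comparison, labelled against unlabelled ADSCs, asks whether the tracer alters the cells. Mitosis genes were higher in the labelled culture by a narrow and nearly uniform margin, with a median log2 difference of 0.58 and an SD over genes of 0.17, against a median of -0.04 and an SD of 0.31 over 18271 features. Ccnb2 differed most (0.80), then Pbk (0.79), Kif2c (0.76), Cenpf (0.74) and Aurkb (0.73), although a second Cenpf probe gave 0.08. Nusap1 (0.35), Nek2 (0.35) and Kif15 (0.25) differed least among the higher genes, but a second Nek2 probe gave 0.80, and 26 of the 30 lay between 0.4 and 0.8. Higher at any size were 29 of 30, as were 43.9% of features. None was 2-fold apart (1.04% of features), and 14 of 30 were 1.5-fold higher, against 2.33%. By role the medians ran from 0.42 for kinesins and spindle assembly to 0.62 for kinases and the passenger complex. Features of like brightness outside the list had a median of 0.00. Neither culture has a replicate and no test was made, and a culture effect and the tracer cannot be told apart.

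Ect2 was the 1 gene not higher in labelled cells (-0.05), and its spots disagreed. On the labelled array its 2 spots read -1.69 and -0.43, against -1.07 and -0.96 on the unlabelled array. Its standard error from spots was 0.63, and that of Nek2 was 0.66, while the probes with 10 spots gave errors of 0.02 for Cdk1 and Nusap1, 0.03 for Mki67 and 0.04 for Kif11 and Prc1. These errors cover spotting within the 2 arrays and not the spread between cultures. Between a gene's difference in labelled cells and its treated minus PBS difference, which uses other arrays, the rank correlation over 25 genes was 0.14 and Pearson's r 0.02, given as a description since genes are not independent samples.

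**Figure D3:**
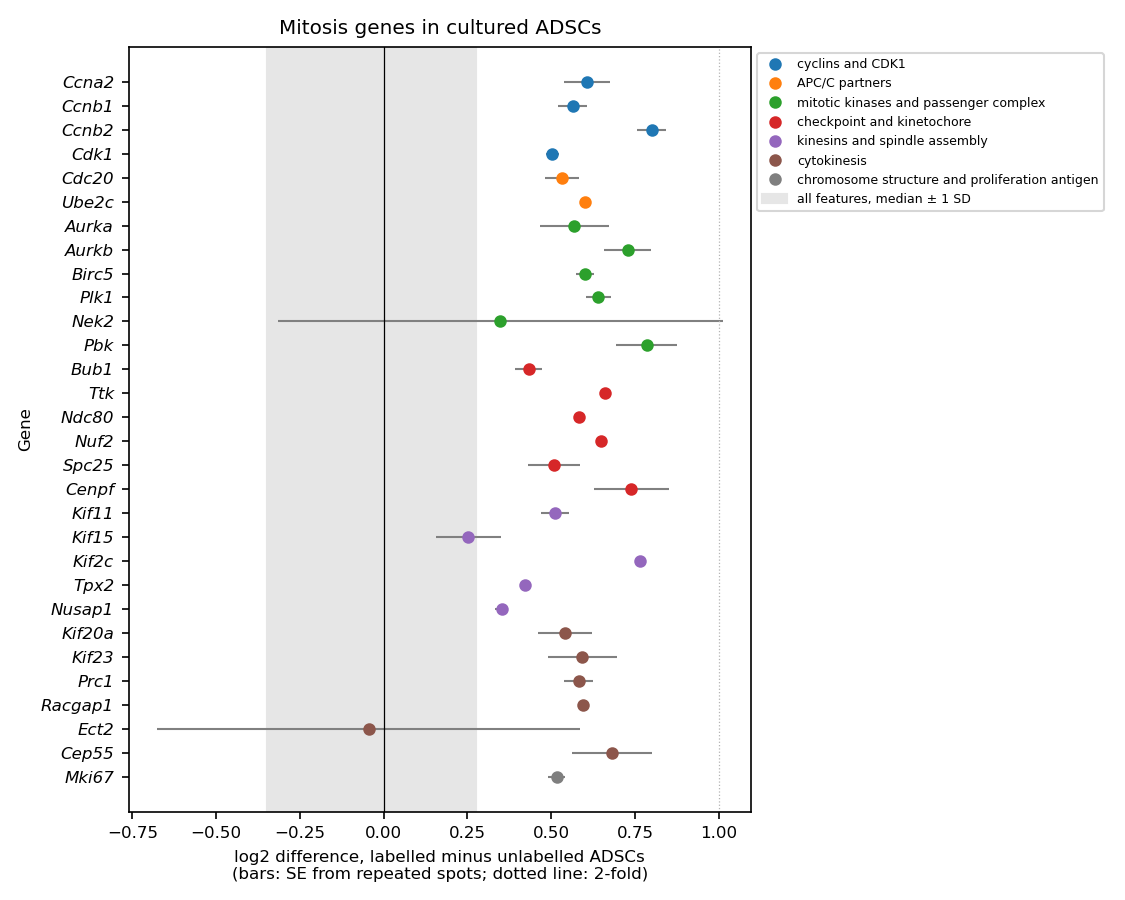
The x axis is the log2 difference of labelled minus unlabelled ADSCs and the y axis lists the 30 mitosis genes, coloured by role. Bars are the standard error from repeated spots (absent for probes with 1 spot), and the grey band is the median of all features plus and minus 1 SD. All genes but Kif15 and Ect2 lie to the right of the band, and none reaches 2-fold.

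Cultured ADSCs stood above myocardium in all 25 mitosis genes measured on every array. Both cell arrays were above all 4 myocardial arrays for 30 of 30 genes (37.7% of 21173 features), and 2-fold above for 24 of 30 (14.3%). Nek2 and Pbk were dim in all 4 hearts and entered this count through the cell arrays alone. The brightest probes of Aurkb, Cenpf and Kif2c were dim in some hearts. For Nek2 the gap of unlabelled cells to the highest heart was 0.11, with an SD between spots of 0.74 in those cells. Over the 25 genes measured on all arrays, unlabelled cells exceeded the highest heart by a median of 1.95, from 0.90 for Mki67 to 2.74 for Ect2. Labelled cells exceeded it by 2.59, from 1.24 for Kif15 to 3.29 for Ccnb2. Against sham, Ccnb1 was 8.95-fold and 13.2-fold higher in unlabelled and labelled cells and Cdk1 8.45-fold and 12.0-fold, while Cdc20 was 1.93-fold and 2.79-fold higher. These levels are set across tissue and cells by each array's own 75th percentile, and no test was made.

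Other genes of the cell cycle were read from lists. Of 78 further mitosis genes, 57 were on the array and no listed member is shared with the 35. In PBS against sham 27 of 33 measured were lower (55.5% of all features) and 6 higher, with a median of -0.46, led by the centromere gene Cenpw (-1.34) and by Cdca3 (-0.90), Cenpt (-0.86) and the minus-end kinesin Kifc1 (-0.83). In treated against PBS 26 of 33 were higher in both arrays (38.6% of features) and 3 lower, with a median of 0.56, led by Cenpt (1.05 ± 0.19), separase Espl1 (1.05 ± 0.24), Cdca3 (0.99 ± 0.07) and Aspm (0.99 ± 0.22; SD, n = 2). None was 2-fold higher in both, and 14 were 1.5-fold higher (2.24%). In labelled against unlabelled cells 53 of 56 were higher (43.9%), with a median of 0.41, led by Mastl, the Greatwall kinase (1.00), then Cenpu (0.81), Cks2 (0.76) and Gtse1 (0.74). The medians of these genes had the sign of those of the mitosis genes above in all 3 comparisons, and were smaller.

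DNA replication genes, which act in S phase, differed less in heart. Their median was -0.08 in PBS against sham (21 of 30 lower, against 55.5% of features) and 0.14 in treated against PBS (20 of 30 higher in both arrays, against 38.6%, and 2 lower), beside -0.60 and 0.90 for the mitosis genes. The members that differed most were Tk1 and Rrm2, which supply deoxynucleotides, at -0.74 and -0.72 in PBS and 0.92 ± 0.14 and 1.10 ± 0.18 (SD, n = 2) in treated against PBS, with Gins1 (0.73 ± 0.01) and the licensing inhibitor Gmnn (0.80 ± 0.21) next. In labelled cells 35 of 38 were higher (43.9%), with a median of 0.33, led by the origin licensing genes Orc1 (1.18) and Cdc6 (0.92), then Rrm2 (0.64) and Cdc45 (0.58). G1 cyclins, kinases and inhibitors had medians of -0.08, 0.13 and 0.16 in these comparisons, and in labelled cells cyclin E2 (Ccne2, 0.67) and cyclin E1 (Ccne1, 0.37) were higher while cyclin D2 (Ccnd2, -0.88) and the inhibitor Cdkn1c (-0.76) were lower. The difference between lists was not tested.

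Of the regulators of mitosis genes, 13 of 19 were on the array, with medians of -0.11, 0.13 and 0.17. Mybl2, which encodes B-MYB, stood at -4.65 in sham, -6.50 in PBS (not well above background), -4.59 and -4.42 in the treated pair, and -2.01 and -1.03 in unlabelled and labelled cells, with PBS lowest and labelled cells highest. Foxm1 was higher by 0.49 ± 0.14 (SD, n = 2) in treated than in PBS and by 0.43 in labelled cells, and E2f1 by 0.55 ± 0.18 in treated. Of 12 regulators measured in PBS and sham, 8 were lower in PBS (55.5% of all features) and 4 higher. The largest of these differences was that of E2f7, which was higher in PBS (0.47). The p53 targets, which DNA damage raises in many cells, showed no common direction in labelled cells. Of 20, 11 were higher (43.9% of all features) and 9 lower, with a median of 0.07. Rrm2b (0.78) and Phlda3 (0.67) were higher and Bax (-0.63) and Gadd45a (-0.55) lower, and Cdkn1a, the p21 inhibitor, stood at 3.53 in unlabelled and 3.64 in labelled cells.

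**Figure D4:**
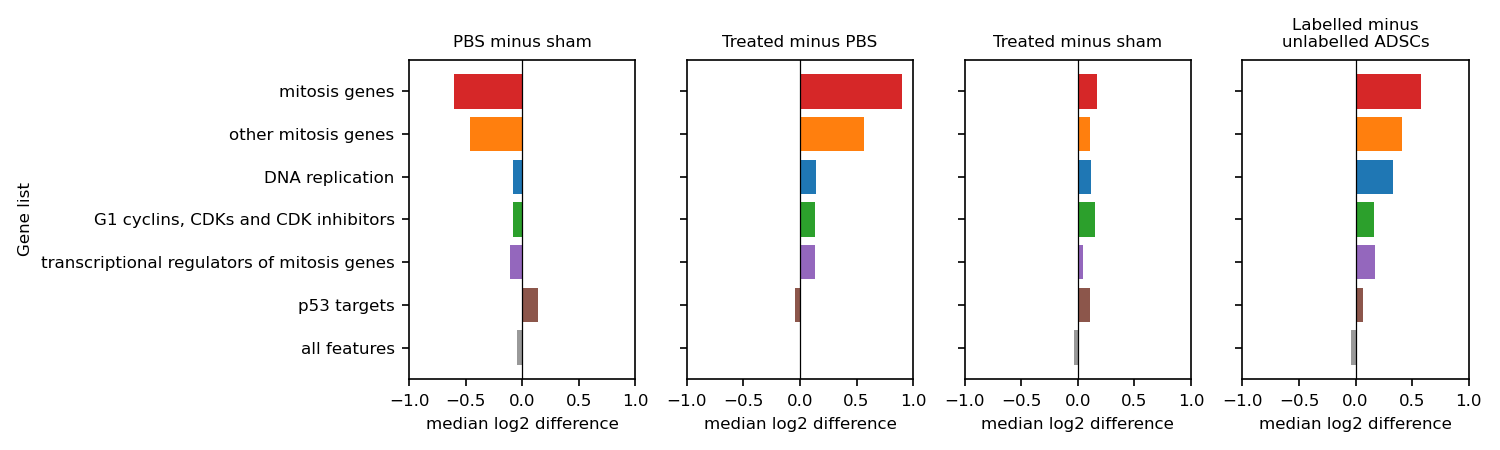
Bars give the median log2 difference (x axis, from 0) of each gene list (y axis) in 4 comparisons, over members well above background on every array compared, beside all features. The mitosis genes, 25 in each comparison of hearts and 30 in that of cells, have medians of -0.60, 0.90, 0.17 and 0.58. The further mitosis genes have medians of -0.46, 0.56, 0.11 and 0.41. Bars carry no error, since lists are described by counts and medians without a test.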

How the data were processed

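Total RNA (Qiagen RNeasy) was made into Cy3 cRNA with the Quick Amp kit of Agilent, per the labels. The authors deposited scanner intensity values from Agilent Feature Extraction 11.0.1.1, named per the file headers, for 58717 non-control spots on each of 6 arrays. Their second deposited file, a table in log2 units, followed log2 processed signal (r of 0.9998 or more) with equal medians within the 4 myocardial arrays and within the 2 cell arrays. It served as an alternative, without comparing tissue with cells.

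Flagged outlier spots were left out and spots of a probe averaged. Processed signal was divided by the 75th percentile of the array (772 in sham, 1120 in PBS, 1276 and 1058 in treated, 2360 in unlabelled and 2615 in labelled cells), and log2 taken. A probe was well above background where at least 50% of its spots were called so by the scanner software. Of 30367 probes, 18355 were named through RefSeq accessions (GRCr8 table). Counts at 2-fold were made over features that were well above background throughout a comparison, and in both treated arrays where these entered. A gene dim on 1 side was read with the dim array at the higher of its own signal and the lowest signal well above background.

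The 4 myocardial arrays were fitted with limma 3.58.1 (R 4.3.3; lmFit, eBayes, Benjamini-Hochberg adjustment) over the 19603 features detected above background on 1 or more of them, and the fit was tested on simulated data. P-values measure only the spread between the treated samples, which may be technical. All listed genes on the array may be named, and up to 4 genes of each other list, those with the largest difference. Single genes named beyond that, such as Mybl2 in myocardium, were chosen after their values were seen. The members and lists were chosen with earlier results of these data known. Alternatives covered background correction, scaling, the deposited table, choice of probe, the dim filter, the variance model, the fold and single treated replicates. Figures used matplotlib 3.10.9.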

Additional observations from a re-analysis of the deposited data

How the results depend on the processing

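Normexp background correction (offset 50), which compresses dim signals by construction, moved the most gene values in the 3 comparisons of hearts (9, 16 and 14 of 25). In labelled against unlabelled cells it moved 2 of 30, and taking the second brightest probe moved 3, Cenpf (0.08), Nek2 (0.80) and Prc1 (0.32). Normexp left 0 of 25 mitosis genes 2-fold lower in PBS than in sham and 0 of 25 2-fold higher in both treated arrays than in PBS. It brought the treated minus PBS median to 0.48 and turned the treated minus sham median from 0.17 to -0.072. Quantile normalization gave 8 genes 2-fold lower in PBS and the deposited values gave 3 of 23, and the cause was not tested. Without the filter on dim probes 1 of 30 was 2-fold apart in treated against sham, by construction from more genes. At 1.5-fold the counts were 13 lower in PBS, 18 higher in treated and 14 higher in labelled cells. Leaving out 1 treated replicate gave 9 to 11 genes 2-fold above PBS with medians of 0.87 to 0.92, and 0 genes 2-fold apart from sham with medians of 0.17 to 0.25. In the cells 30 of 30, genes dim in heart included, were above myocardium each time. No setting run turned the other medians: PBS minus sham stayed between -0.72 and -0.50, treated minus PBS between 0.48 and 1.00, and labelled minus unlabelled between 0.53 and 0.62. By limma 0 mitosis genes passed under each setting run. limma with 1 treated array was not run, having no residual degree of freedom. No paired analysis was possible because the groups compared share fewer than 2 replicate numbers.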
